A study of Mus musculus with 9 samples.

Results

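Fc receptors read the constant end of antibodies, and 9 of their genes were followed through the formation of talc-induced adhesions in the mouse chest. The 9 genes were taken by symbol from a table of 25652 genes: Fcgr1, Fcgr3, Fcgr4, Fcer1g, Fcgr2b, Fcgrt, Fcer1a, Fcer2a and Fcrla. Of these, 8 had enough reads to be tested, among 14794 tested genes, and Fcer1a did not. Bulk mRNA sequencing was available from 3 libraries at each of 3 times. Wild-type (WT) mice of no stated strain, sex or age had been sedated and given 200 µL of talc in saline, at 2.0 g/kg, by needle through the diaphragm into the left side of the chest. Day 0 mice were killed 30 min later, day 3 mice after 3 days and day 9 mice after 9 days. Every group therefore carried talc, and day 0 is the earliest time after injection, not an untreated state. The labels call the tissue adhesion tissue lying between the chest wall and the lungs in the sample fields, and left lung parenchyma attached to the chest in the protocol. They do not say that the libraries of a day came from separate mice, so the p-values speak only of the scatter among these libraries, part or all of which may be technical.

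In mice, the activating receptors for IgG, encoded by Fcgr1, Fcgr3 and Fcgr4, sit on macrophages, monocytes and, in part, neutrophils and natural killer (NK) cells. They bind antibody-coated targets with their own chain and signal through a shared partner, the Fc receptor gamma chain encoded by Fcer1g, whose activation motif recruits the kinase Syk. Fcgr2b encodes the inhibitory IgG receptor, which calls in the phosphatase SHIP1 (Inpp5d) and is carried by myeloid cells and by B cells. Fcgrt encodes the neonatal receptor, which pairs with beta-2-microglobulin and returns IgG and albumin from endosomes to the blood. Fcer1a encodes the IgE-binding chain of the high-affinity receptor of mast cells and basophils. Fcer2a encodes CD23, the low-affinity IgE receptor of B cells, and Fcrla an intracellular receptor-like protein of B cells. Cell-bound antibody receptors of macrophages are best known for driving the uptake of coated particles and the release of cytokines.

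Library totals were between 12769059 and 18701063 counts. Levels below are CPM, in which TMM factors make the libraries comparable, and since the table holds no value corrected for gene length, levels are compared between libraries and never between genes. Skeletal muscle transcripts were present in every library, with the summed CPM of 6 markers between 36680 and 87270. The 7 alveolar type 2 markers, genes of the surfactant-making lung cells, summed to 4650 to 5101 CPM at day 0, 100.3 to 5536 CPM at day 3 and 590.2 to 2581 CPM at day 9. Day 3 replicate 3 held the most of these lung transcripts and day 3 replicates 1 and 4 the least. With the mean alveolar type 2 level of each library added to the fit, 5 Fc receptor genes were higher at each later day than at day 0, as without it. Then 1 gene was lower at day 3 and 2 at day 9, where 2 were lower at each day without it. Leaving out day 3 replicate 3 gave 6 higher and 2 lower at each later day, and leaving out day 3 replicate 4 gave 5 and 2. The counts over all genes moved too. Of 14794 tested, 1904 were higher and 486 lower at day 3, and 2246 and 820 at day 9. With the covariate these were 1037 and 693, and 2750 and 2210. Without day 3 replicate 3 they were 2555 and 2624 of 14977, and 2797 and 2221. Without day 3 replicate 4 they were 1620 and 367 of 15005, and 2702 and 1292.

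The 5 receptor genes that were higher after day 0 and the B cell gene Fcrla, which was lower, lie on chromosome 1 except for Fcgr1 on chromosome 3. The 120 bases before the start of each are printed to show what these genes do and do not share at their promoters. The letters come from RefSeq (GRCm38.p6), run 5′ to 3′ on the gene's own strand, and have in capitals each match to 1 of 4 motifs searched on both strands. The motifs were the PU.1 core GAGGAA, the STAT-binding gamma-activated sequence TTCNNNGAA, the EBF1 motif (TCCC, NN, GGGA) and the octamer ATGCAAAT.
Fcgr1, chr3:96293970-96294089, minus strand: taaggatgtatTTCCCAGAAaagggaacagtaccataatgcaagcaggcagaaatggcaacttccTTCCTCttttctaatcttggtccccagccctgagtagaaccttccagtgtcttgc
Fcgr3, chr1:171059404-171059523, minus strand: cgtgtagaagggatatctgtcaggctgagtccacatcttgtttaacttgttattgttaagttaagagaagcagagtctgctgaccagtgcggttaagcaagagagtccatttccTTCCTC
Fcgr4, chr1:171018806-171018925, plus strand: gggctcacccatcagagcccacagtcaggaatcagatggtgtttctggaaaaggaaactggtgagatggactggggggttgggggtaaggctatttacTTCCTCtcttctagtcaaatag
Fcer1g, chr1:171234350-171234469, minus strand: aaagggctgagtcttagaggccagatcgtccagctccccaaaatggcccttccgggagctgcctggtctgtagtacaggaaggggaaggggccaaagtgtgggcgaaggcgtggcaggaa
Fcgr2b, chr1:170976072-170976191, minus strand: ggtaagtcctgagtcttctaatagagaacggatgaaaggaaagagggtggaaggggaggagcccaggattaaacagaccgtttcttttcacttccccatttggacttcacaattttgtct
Fcrla, chr1:170927584-170927703, minus strand: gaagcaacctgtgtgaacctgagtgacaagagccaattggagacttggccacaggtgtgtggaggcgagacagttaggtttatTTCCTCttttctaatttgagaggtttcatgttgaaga
Fcgr1, Fcgr3, Fcgr4 and Fcrla each hold TTCCTC, the PU.1 core read on the other strand, and Fcgr1 also holds TTCCCAGAA, a match to the gamma-activated sequence. No match overlaps another. In the 250 bases before the start, for which all 9 genes had an entry, Fcer1a adds a PU.1 core, which makes 5 of 9 genes, and no member holds the EBF1 motif or the octamer. Among 32851 promoter entries of the same length, 23.3% hold GAGGAA, 7.02% TTCNNNGAA, 0.779% the EBF1 motif and 1.60% ATGCAAAT. These are matches of letters only, and binding was not measured.

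Reads of Fcgr2b and Fcgr3 can be confused over a stretch of their coding sequence, which is printed because both genes carry results below. In the GENCODE M21 transcripts, 129 bases are identical, at coding positions 278 to 406 of 1020 in Fcgr2b and 263 to 391 of 801 in Fcgr3, with the whole run in capitals.
Fcgr2b and Fcgr3: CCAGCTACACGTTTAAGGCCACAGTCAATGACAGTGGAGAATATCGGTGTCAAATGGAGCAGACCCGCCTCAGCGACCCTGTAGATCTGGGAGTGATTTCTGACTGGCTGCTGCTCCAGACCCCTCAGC
Of the 50-base words in the transcripts of Fcgr3, 166 of 1627 (10.2%) also occur in Fcgr2b. For Fcgr2b, 395 of 3708 (10.7%) occur in another gene, and for Fcer2a 39 of 2483 (1.57%), while the other 6 genes share none. How the authors counted reads that match more than 1 gene is not given in the sources used here.

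At day 3 the myeloid Fc receptors stood far above day 0 and the B cell types far below it. The activating receptors Fcgr1, Fcgr3 and Fcgr4, their gamma chain Fcer1g and the inhibitory receptor Fcgr2b all rose, by 4.11-fold to 16.5-fold, and Fcer2a and Fcrla fell, by 5.54-fold and 5.10-fold. At day 9 the same genes had moved in the same directions against day 0. Of 8 tested members, 5 were higher and 2 lower at day 3, where 12.9% of all tested genes were higher and 3.29% lower. At day 9, 5 were higher and 2 lower, where 15.2% of all tested genes were higher and 5.54% lower. In either direction this makes 7 of 8 members at each day, beside 16.2% of tested genes at day 3 and 20.7% at day 9. In the joint test for any difference between the days 7 of 8 passed, beside 25.7%. The members were chosen with earlier results of these data known, so setting them beside these shares is a description and no test. All day 3 libraries lay above all day 0 libraries for 5 members (24.2% of tested genes) and below them for 2 (12.9%). The like counts at day 9 were 6, with Fcgrt added (29.3%), and 2 (28.2%). In bulk tissue, more cells of a type and more RNA per cell cannot be told apart. Both comparisons use the same day 0 libraries, so they are not independent of each other.

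Fcgr1, the high-affinity IgG receptor, stood at 2.05, 1.81 and 1.69 CPM in the day 0 libraries, at 31.9, 17.7 and 42.3 CPM at day 3, and at 21.9, 12.6 and 13.0 CPM at day 9. Every later library lay above every day 0 library, and the highest values were those of day 3 replicates 4 and 1. It averaged 30.6 ± 12.4 CPM at day 3 against 1.85 ± 0.183 CPM at day 0 (SD, n = 3 each), a log2 fold change of 4.04 ± 0.38 (SE; 16.5-fold; edgeR adjusted p = 0.000587). At day 9 it averaged 15.8 ± 5.25 CPM, a log2 fold change of 3.09 ± 0.37 against day 0 (8.52-fold; edgeR adjusted p = 0.00077). The day 0 values rest on 35, 29 and 30 reads. With the alveolar type 2 covariate the day 3 log2 fold change was 3.21 (9.26-fold), and the call stood (edgeR adjusted p = 0.000251).

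Fcgr3, the low-affinity IgG receptor that is also the main one of mouse NK cells, was at 17.6, 22.4 and 18.4 CPM at day 0, at 74.8, 74.2 and 96.5 CPM at day 3, and at 137.3, 96.8 and 96.7 CPM at day 9. The 3 days do not overlap, although days 3 and 9 nearly touch, and day 9 replicate 1 was the highest library. Its log2 fold change was 2.07 ± 0.19 at day 3 against day 0 (4.20-fold; edgeR adjusted p = 0.000553) and 2.502 ± 0.19 at day 9 against day 0 (5.67-fold; edgeR adjusted p = 0.000178). None of the 6 tested NK cell markers rose at either day, and Gzma, a granzyme, fell at day 3 (edgeR adjusted p = 0.0393). The Gzma call ended without any 1 of 8 libraries, with adjusted p of 0.0524 to 0.125, and held without day 3 replicate 3, where the log2 fold change was -3.02 in place of -1.999. Eomes, a factor of NK cells, fell at day 9 (edgeR adjusted p = 0.0274), a call that ended when any day 0 library, day 9 replicate 1 or day 9 replicate 3 was left out (0.0522 to 0.1). The summed CPM of the 7 NK markers lay between 18.2 and 21.9 at day 0, between 4.26 and 12.2 at day 3, and between 6.30 and 8.98 at day 9.

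Fcgr4, an IgG receptor of mouse monocytes, macrophages and neutrophils, was at 2.46, 3.496 and 2.25 CPM at day 0, at 14.95, 8.17 and 15.4 CPM at day 3, and at 27.0, 10.98 and 17.0 CPM at day 9. All 6 later libraries lay above day 0, and the libraries of days 3 and 9 overlapped. The log2 fold change was 2.23 ± 0.39 at day 3 against day 0 (4.68-fold; edgeR adjusted p = 0.00795) and 2.74 ± 0.39 at day 9 against day 0 (6.68-fold; edgeR adjusted p = 0.00187). With the alveolar type 2 covariate the day 3 value was 1.51 (2.85-fold; edgeR adjusted p = 0.0282). None of the 8 neutrophil markers passed in any comparison, and their summed CPM ranged from 728 to 1313 at day 0, from 351.5 to 2006 at day 3 and from 622.5 to 1036 at day 9.

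Fcer1g, the signalling chain shared by these receptors, was at 24.9, 23.7 and 23.1 CPM at day 0, at 93.7, 79.4 and 122 CPM at day 3, and at 125.2, 84.9 and 93.7 CPM at day 9. The day 0 libraries had an SD of 0.890 CPM, and no later library came near them. The log2 fold change was 2.04 ± 0.20 at day 3 (4.11-fold; edgeR adjusted p = 0.000627) and 2.08 ± 0.20 at day 9 (4.24-fold; edgeR adjusted p = 0.000338), each against day 0.

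Fcgr2b, the inhibitory receptor, was at 16.9, 19.2 and 21.6 CPM at day 0, at 101.5, 94.3 and 156.3 CPM at day 3, and at 110.6, 102.1 and 66.8 CPM at day 9. All later libraries lay above day 0, with day 3 replicate 4 the highest and day 9 replicate 4 the lowest of them. The log2 fold change was 2.61 ± 0.26 at day 3 (6.10-fold; edgeR adjusted p = 0.000682) and 2.28 ± 0.25 at day 9 (4.84-fold; edgeR adjusted p = 0.000594), each against day 0. B cells carry this receptor too, and the summed CPM of the 10 B cell markers lay between 151.6 and 258.2 at day 0, between 15.9 and 93.2 at day 3, and between 55.4 and 75.3 at day 9.

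**Figure D1:**
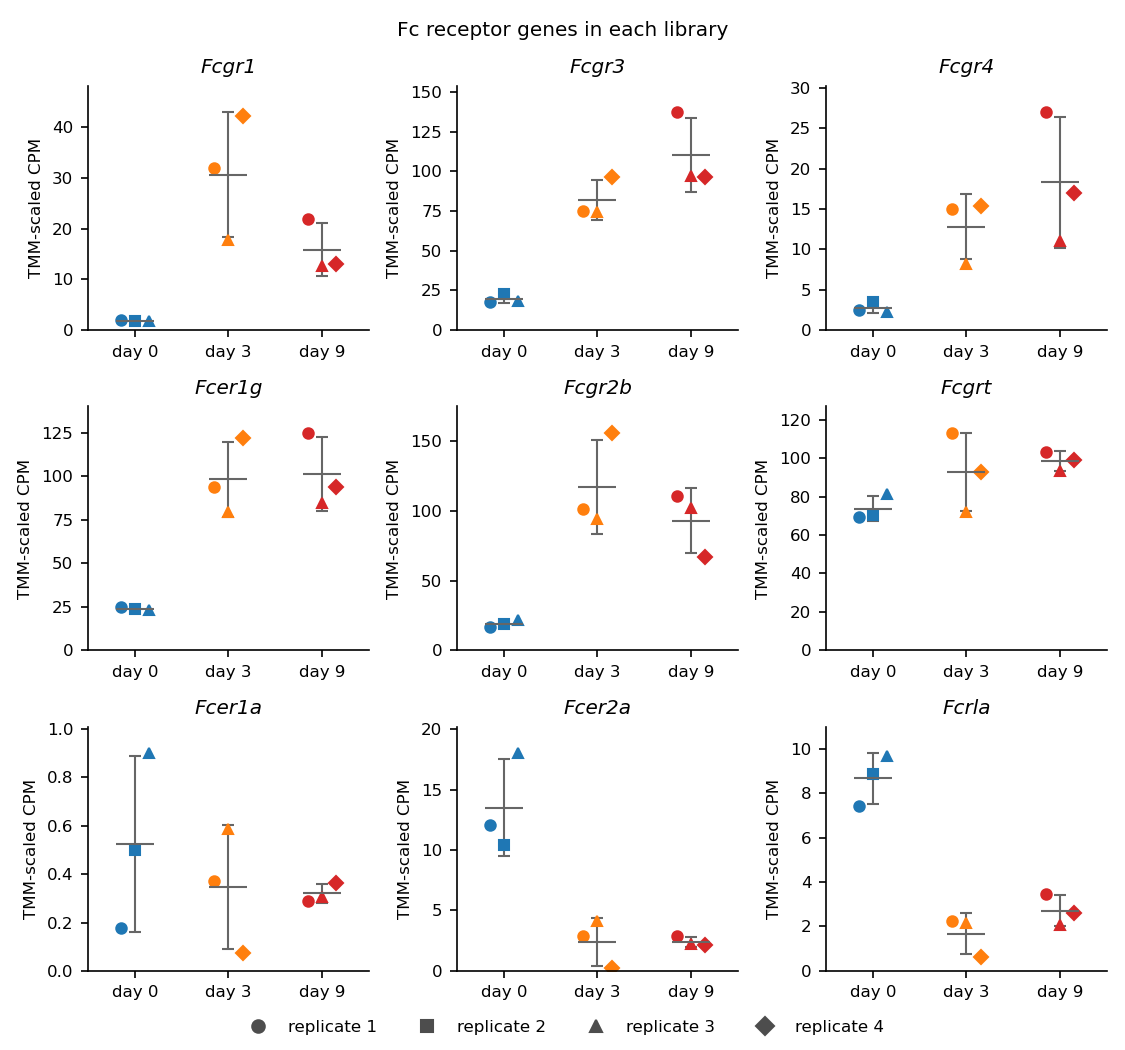
TMM-scaled CPM of the 9 Fc receptor genes (vertical axes, each from 0) at days 0, 3 and 9 (horizontal axes), with 1 point per library shaped by replicate number, and the mean with its SD (n = 3). Fcgr1, Fcgr3, Fcgr4, Fcer1g and Fcgr2b lie above day 0 in all 6 later libraries, Fcer2a and Fcrla lie below it in all 6, and Fcer1a stays under 1 CPM throughout.

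Fcgrt, the neonatal receptor, passed at neither day with edgeR and TMM on all libraries. Of 18 alternatives, it passed under 1 at day 3 and under 4 at day 9. It was at 69.3, 70.5 and 81.1 CPM at day 0, at 113.2, 72.2 and 92.8 CPM at day 3, and at 103.4, 93.3 and 99.2 CPM at day 9. Day 3 replicate 3 lay among the day 0 libraries, whereas the 3 day 9 libraries all lay above them. The log2 fold change was 0.33 ± 0.16 at day 3 (edgeR adjusted p = 0.184) and 0.42 ± 0.16 at day 9 (edgeR adjusted p = 0.0963), each against day 0, and neither passed. Without day 3 replicate 3, edgeR gave adjusted p = 0.0289 at day 3 and 0.0202 at day 9, and without day 3 replicate 1 it gave 0.0469 at day 9. At day 9 it also passed with library totals alone in place of TMM (log2 fold change 0.51, edgeR adjusted p = 0.0292) and when the libraries of these 2 days alone were fitted (0.42, edgeR adjusted p = 0.00818). Its partner chain B2m, beta-2-microglobulin, had a log2 fold change of 0.08 ± 0.16 at day 3 (edgeR adjusted p = 0.745) and rose by 0.59 ± 0.16 on the log2 scale at day 9 (edgeR adjusted p = 0.0344). The B2m call at day 9 ended when day 0 replicate 1, day 0 replicate 2, day 9 replicate 1 or day 9 replicate 4 was left out, with adjusted p of 0.0946 to 0.131. The authors' FDR for B2m at day 9 was 0.247.

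Fcer2a, the CD23 gene of B cells, was at 12.1, 10.4 and 18.01 CPM at day 0, at 2.87, 4.11 and 0.228 CPM at day 3, and at 2.90, 2.21 and 2.11 CPM at day 9. All 6 later libraries lay below day 0, and day 3 replicate 4, with 3 reads, was far below the rest. It averaged 2.40 ± 1.98 CPM at day 3 against 13.5 ± 3.99 CPM at day 0 (SD, n = 3 each), a log2 fold change of -2.47 ± 0.69 (5.54-fold lower; edgeR adjusted p = 0.044). At day 9 it averaged 2.41 ± 0.429 CPM, a log2 fold change of -2.49 ± 0.69 against day 0 (5.61-fold lower; edgeR adjusted p = 0.0357). Without day 3 replicate 4, edgeR gave a log2 fold change of -1.95 at day 3 with adjusted p = 0.00898. The day 3 call ended without any 1 of the 3 day 0 libraries, the 3 day 9 libraries or day 3 replicate 1 (adjusted p of 0.0643 to 0.133). The day 9 call ended without any 1 of the 3 day 0 or the 3 day 9 libraries (adjusted p of 0.0735 to 0.121). Over all 18 alternatives, 11 ended the call at day 3 and 8 that at day 9, with log2 fold changes of -3.15 to -1.80 at day 3 and -2.64 to -2.05 at day 9.

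Fcrla was at 7.43, 8.87 and 9.68 CPM at day 0, at 2.24, 2.17 and 0.609 CPM at day 3, and at 3.48, 2.05 and 2.62 CPM at day 9. Again no later library reached day 0, and day 3 replicate 4 was the lowest. The log2 fold change was -2.35 ± 0.44 at day 3 (5.10-fold lower; edgeR adjusted p = 0.011) and -1.68 ± 0.43 at day 9 (3.19-fold lower; edgeR adjusted p = 0.0261), each against day 0. The day 3 call held with each library left out in turn. The day 9 call ended without any 1 of the 3 day 0 libraries or without day 9 replicate 3 or 4 (adjusted p of 0.0633 to 0.0964).

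The B cell markers also lay lower, though by unlike amounts. Their log2 fold changes ran from -1.95 to -0.80 at day 3 and from -2.33 to -0.28 at day 9. Cd22 overlapped, at 13.1 to 27.6 CPM at day 9 against 16.2 to 33.0 CPM at day 0. Of 10 tested, 3 fell at day 3 and 5 at day 9 against day 0, beside 3.29% and 5.54% of all tested genes, and none rose. Their median log2 fold change was -1.68 at day 3 and -1.90 at day 9, where the median of all tested genes was 0.05 and 0.01. Cd79a, a chain of the B cell antigen receptor, had a log2 fold change of -1.79 at day 3 (edgeR adjusted p = 0.049) and -2.03 at day 9 (edgeR adjusted p = 0.0269). Those of the B cell kinase gene Blk were -1.88 (edgeR adjusted p = 0.0204) and -1.97 (edgeR adjusted p = 0.0125). The B cell factor Pax5 passed at day 9 only, at -2.33 (edgeR adjusted p = 0.0313), and Ms4a1, encoding CD20, passed at neither day (-0.97 and -1.62). At day 9 Ms4a1 did pass without day 3 replicate 4 (edgeR adjusted p = 0.0141), in the fit of these 2 days alone (edgeR adjusted p = 0.0112) and with DESeq2 (adjusted p = 0.0251). Day 3 replicate 4 held 15.9 CPM of the marker sum against 82.15 and 93.2 CPM in the other day 3 libraries. The day 9 calls of Cd79a and Pax5 ended without any 1 of the 3 day 0 or the 3 day 9 libraries, and the day 3 call of Cd79a ended without any 1 of these or day 3 replicate 1 (edgeR adjusted p of 0.0599 to 0.141). The Blk call ended at day 3 without day 0 replicate 1 or 3 (0.059 to 0.0767) and at day 9 without day 9 replicate 4 (0.0539). At day 3, Pax5 passed without day 3 replicate 3 or 4 (0.0128 to 0.0161), with DESeq2 (0.00716) and with limma-voom (0.033). The part of B cell number in the fall of Fcer2a and Fcrla was not tested.

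Within a library, the counts of the B cell receptor genes can be set against Cd79a. The ratio of Fcer2a to Cd79a was 0.191, 0.240 and 0.0933 at day 3 against 0.361, 0.283 and 0.349 at day 0, so all day 3 libraries lay lower (2.03-fold; exact permutation p = 0.1, two-sided, the smallest that 3 against 3 can give; 0.257 adjusted over all 36 ratio tests). At day 9 it was 0.288, 0.207 and 0.237, which overlapped day 0 (exact permutation p = 0.2, adjusted 0.379). The ratio of Fcrla to Cd79a overlapped between all pairs of days.

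**Figure D2:**
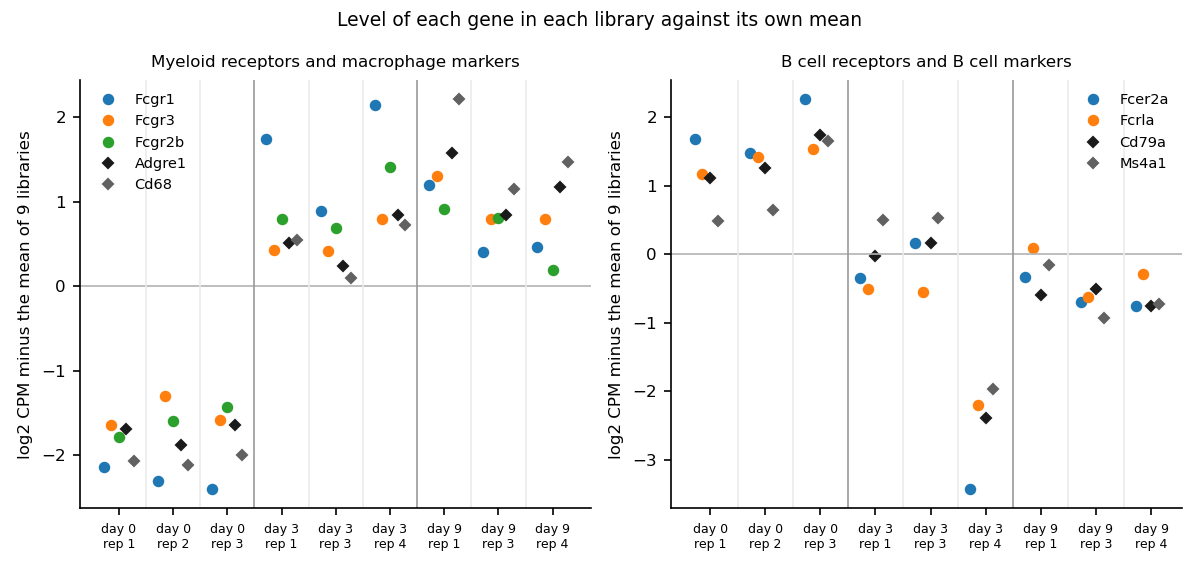
Log2 CPM of each gene minus its own mean over the 9 libraries (vertical axes) in each library (horizontal axes), with circles for Fc receptor genes and diamonds for cell markers. Fcgr1, Fcgr3 and Fcgr2b lie with Adgre1 and Cd68 below their mean at day 0 and above it later. The B cell receptors, like Cd79a and Ms4a1, lie above their mean at day 0 and are lowest in day 3 replicate 4. In day 3 replicates 1 and 3 Ms4a1 lies at 0.50 and 0.52, while Fcrla lies at -0.51 and -0.56.

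Fcer1a, the IgE-binding chain of mast cells, was near the limit of detection. It had 3, 8 and 16 reads in the day 0 libraries, 6, 10 and 1 reads in those of day 3, and 4, 6 and 5 reads in those of day 9, which is 0.0761 to 0.901 CPM over the 9 libraries. The libraries of the 3 days overlapped. Fitted without the filter on low counts, its log2 fold change was -0.57 ± 0.78 at day 3 and -0.71 ± 0.79 at day 9 against day 0 (edgeR adjusted p = 0.657 and 0.57), so a change was not detectable at this depth. Ms4a2, the beta chain of the same receptor, had log2 fold changes of -1.25 and -1.14 (edgeR adjusted p = 0.256 and 0.281). At both days all its libraries lay below day 0, as for 12.9% of tested genes at day 3 and 28.2% at day 9. It had 21 to 29 reads in the day 0 libraries, 3 to 20 in those of day 3 and 4 to 22 in those of day 9. Without day 3 replicate 3 the day 3 value of Ms4a2 passed, with edgeR adjusted p = 0.0335. None of the 9 mast cell and basophil markers passed at either day with edgeR on all libraries. The authors' FDR was lower for Gata2, at 0.0137 at day 3 and 0.000252 at day 9, and for Kit, at 0.055 and 0.0113. For the other 7 markers the authors' FDR was 0.128 or more at both days. The summed CPM of the 9 markers lay between 218 and 227.1 at day 0, between 55.9 and 216.5 at day 3, and between 52.4 and 124.7 at day 9. Kit and Gata2, which other cells also express and which were set apart after their values were seen, together held 168.5 to 184.8 CPM in the day 0 libraries, 20.1 to 150.6 CPM in those of day 3 and 25.7 to 64.1 CPM in those of day 9. The other 7 markers summed to 36.95 to 58.6 CPM in the day 0 libraries, 33.02 to 65.8 CPM in those of day 3 and 26.7 to 64.6 CPM in those of day 9.

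Between days 9 and 3 no tested receptor gene passed with all libraries. With edgeR, 0 of 8 tested members were higher and 0 lower at day 9, where 5.19% of all tested genes were higher and 3.66% lower (8.85% in either direction). DESeq2 and limma-voom also gave 0 in each direction, and 2 members had an unadjusted edgeR p under 0.05. These were Fcgr1, with a log2 fold change of -0.95 ± 0.32 (edgeR adjusted p = 0.103), and Fcgr3, with 0.43 and all day 9 libraries above day 3, as for 14.4% of tested genes (edgeR adjusted p = 0.165). Without day 3 replicate 3, the library with the lowest day 3 level of Fcgr1, its fall passed (edgeR adjusted p = 0.0135). The authors' deposited table gives Fcgr1 a log2 fold change of -0.95 with an FDR of 0.0425 in this comparison. The other 6 tested members had log2 fold changes between -0.33 and 0.68, the last that of Fcrla.

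**Figure D3:**
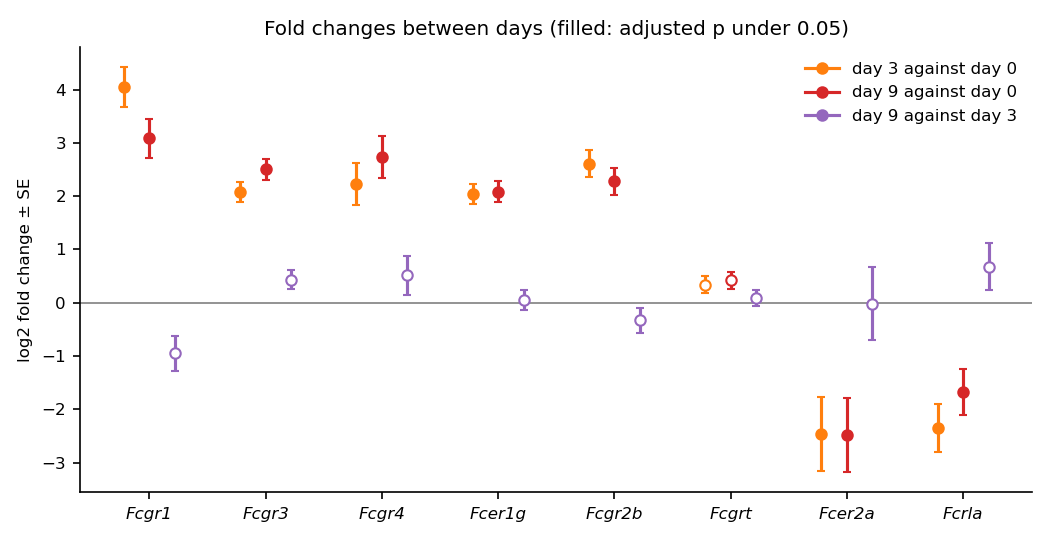
Log2 fold change with its SE (vertical axis) of the 8 tested Fc receptor genes (horizontal axis) for the 3 comparisons of days, with filled points where the adjusted p was under 0.05. Fcgr1 has the largest change, 4.04 at day 3, Fcgrt has no filled point, and no gene has a filled point for day 9 against day 3.

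The ratios of activating to inhibitory receptors within libraries are a description, because 3 libraries against 3 cannot give an exact permutation p under 0.1. The ratio of Fcgr1 to Fcgr2b counts was 0.123, 0.0959 and 0.0793 in the day 0 libraries, 0.315, 0.188 and 0.271 in those of day 3, and 0.198, 0.123 and 0.196 in those of day 9. It was thus 2.58-fold higher at day 3 and 1.72-fold higher at day 9 than at day 0, with no overlap in either, although the lowest day 9 and the highest day 0 value both round to 0.123 (exact permutation p = 0.1 each, adjusted 0.257). Fcgr3 and Fcer1g went the other way at day 3. The ratio of Fcgr3 to Fcgr2b was 0.737, 0.787 and 0.617 at day 3 against 1.04, 1.17 and 0.849 at day 0, 1.42-fold lower (exact permutation p = 0.1, adjusted 0.257). The ratio of Fcer1g to Fcgr2b was 1.47-fold lower at day 3 than at day 0 without overlap (exact permutation p = 0.1, adjusted 0.257). At day 9 the ratios of Fcgr3 and of Fcer1g to Fcgr2b overlapped those of day 0, and the ratio of Fcgr4 to Fcgr2b overlapped between all pairs of days. The shared coding run of Fcgr2b and Fcgr3 touches the ratio of these 2 genes, and its part was not tested.

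Against Adgre1, the F4/80 gene of macrophages, Fcgr1 was higher in the day 3 libraries. The ratio of Fcgr1 to Adgre1 counts was 0.133, 0.134 and 0.106 in the day 0 libraries, 0.441, 0.297 and 0.464 in those of day 3, and 0.144, 0.138 and 0.114 in those of day 9. All day 3 libraries lay above the other 6, by 3.18-fold against day 0 (exact permutation p = 0.1, adjusted 0.257). At day 9 the ratio was 2.99-fold lower than at day 3 (exact permutation p = 0.1, adjusted 0.257) and overlapped day 0 (exact permutation p = 0.5, adjusted 0.545). The ratio of Fcer1g to Adgre1 was 1.20-fold lower at day 3 and 1.85-fold lower at day 9 than at day 0, without overlap (exact permutation p = 0.1 each, adjusted 0.257). That of Fcgr3 to Adgre1 was so at day 9 (1.37-fold lower; exact permutation p = 0.1, adjusted 0.257), and that of Fcgr2b was 2.00-fold lower at day 9 than at day 3 (exact permutation p = 0.1, adjusted 0.257). In all, 12 ratios were compared over 3 pairs of days, and in 14 of the 36 the libraries did not overlap. Adgre1 itself averaged 15.2 ± 1.31, 74.5 ± 15.9 and 119.3 ± 30.6 CPM at days 0, 3 and 9.

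**Figure D4:**
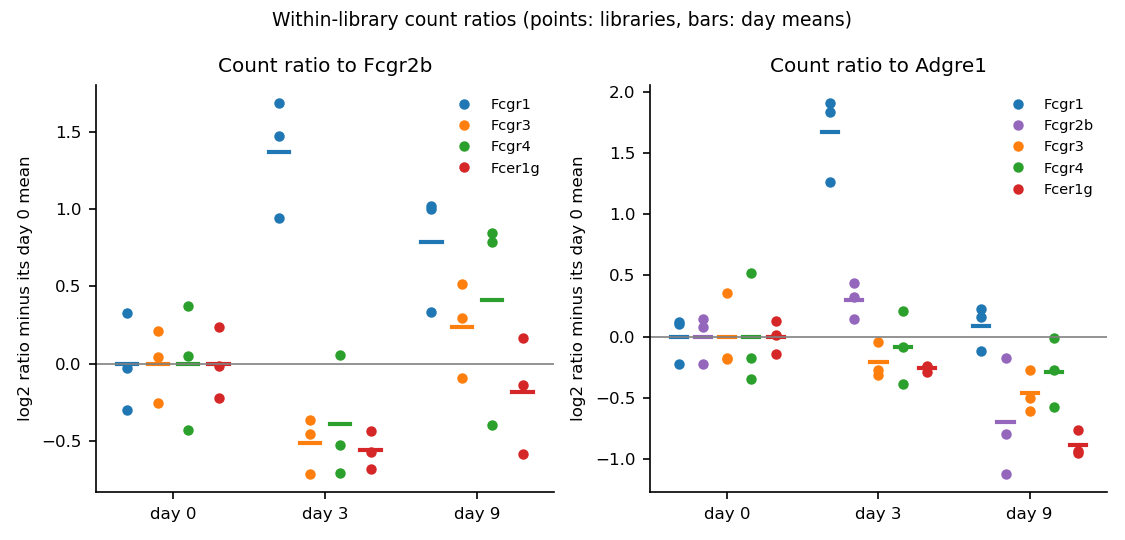
Log2 ratio of counts within a library minus its mean at day 0 (vertical axes) at days 0, 3 and 9 (horizontal axes), to the inhibitory receptor Fcgr2b on the left and to the macrophage gene Adgre1 on the right, with points for libraries and bars for day means. Fcgr1 lies above 0 in all 3 day 3 libraries in each panel, by 1.37 and 1.67 on average, while Fcgr3 and Fcer1g lie below 0 there.

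Of the macrophage markers, 8 of 10 rose at day 3 and 9 at day 9 against day 0, beside 12.9% and 15.2% of all tested genes. Their median log2 fold change was 2.11 at day 3 and 2.06 at day 9, beside 2.15 and 2.62 for the 4 activating receptor genes. Cd68, a lysosomal protein of macrophages, rose by 2.55 and 3.75 on the log2 scale (edgeR adjusted p = 0.00112 and 0.000187), and Adgre1 by 2.30 and 2.98 (edgeR adjusted p = 0.000634 and 0.000179). Msr1, a scavenger receptor, rose by 3.69 and 3.76 (edgeR adjusted p = 0.0034 and 0.00169). Its day 0 levels were 1.52, 2.00 and 6.92 CPM, and without day 0 replicate 3 its log2 fold changes were 4.68 and 4.75. The summed CPM of the 10 markers lay between 1430 and 1536 at day 0, between 2636 and 3693 at day 3, and between 4162 and 5179 at day 9. Most of this sum was Lyz2, the lysozyme gene, which did not pass at day 3 (log2 fold change 0.68, edgeR adjusted p = 0.093). The other 9 markers summed to 278.4 to 346.6 CPM in the day 0 libraries, 994.6 to 1362 CPM in those of day 3 and 1216 to 1648 CPM in those of day 9. The part of macrophage number in the rise of the receptors was not tested.

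Other Fc receptors and partner chains gave a mixed picture. Of 13 listed, 10 were tested, and 3 rose and 1 fell at day 3, while 4 rose and 2 fell at day 9, against day 0. Of all tested genes, 12.9% rose and 3.29% fell at day 3, and 15.2% rose and 5.54% fell at day 9. Tyrobp, an adaptor chain of myeloid and NK receptors, rose by 1.42 at day 3 and 2.04 at day 9 on the log2 scale (edgeR adjusted p = 0.00404 and 0.00047). Fcrlb, an intracellular Fc receptor-like protein related to Fcrla, was at 0.410, 0.125 and 0.169 CPM in the day 0 libraries, at 3.92, 5.35 and 2.89 CPM in those of day 3, and at 2.03, 3.03 and 2.40 CPM in those of day 9. No later library came near day 0, where Fcrlb had 2 to 7 reads. Its log2 fold change was 4.07 ± 0.49 at day 3 (edgeR adjusted p = 0.00155) and 3.36 ± 0.48 at day 9 (edgeR adjusted p = 0.00188), and without day 0 replicate 1 it was 4.71 and 4.01. Fcrla and Fcrlb, both Fc receptor-like genes, thus went in opposite directions, each past the threshold at both days.

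Fcrls, a secreted Fc receptor-like protein of mouse macrophages, passed as higher at both days, with log2 fold changes of 1.77 and 1.95 (edgeR adjusted p = 0.0461 and 0.0268). The day 3 call ended without any 1 of the 3 day 0 libraries, the 3 day 9 libraries or day 3 replicate 4 (adjusted p of 0.0674 to 0.143). Fcrls was at 13.8, 14.75 and 45.9 CPM in the day 3 libraries, the last being replicate 4, and without it the log2 fold change was 0.98. With the alveolar type 2 covariate it was 0.91 (edgeR adjusted p = 0.276). The day 9 call ended without any 1 of day 0 replicates 1 and 2 and day 9 replicates 1 and 4 (0.0693 to 0.0965). Fcmr, the IgM receptor of B cells, was lower at day 9 by edgeR (log2 fold change -2.504, adjusted p = 0.032), as was Fcrl1, another B cell member of the family (-2.02, edgeR adjusted p = 0.0305). The Fcmr call ended without any 1 of the 3 day 0 or the 3 day 9 libraries (adjusted p of 0.0653 to 0.107), and that of Fcrl1 without day 0 replicate 1 or 3 or any day 9 library (0.0551 to 0.112). At day 3 Fcmr stood at -2.14 and did not pass (edgeR adjusted p = 0.06). It did pass there without day 3 replicate 3 or 4 (edgeR adjusted p of 0.00781 to 0.03), with DESeq2 (adjusted p = 0.00562) and with limma-voom (adjusted p = 0.0328). The authors' FDR for Fcmr at day 3 was 0.00118. Cd247, the zeta chain of the T cell receptor, which in human NK cells also serves Fc receptors, fell at day 3 (log2 fold change -1.94, edgeR adjusted p = 0.0114), while at day 9 it stood at -0.69 (edgeR adjusted p = 0.198, and 0.0254 in the fit of these 2 days alone).

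Most signalling genes below the activating receptors rose, with smaller median changes than the receptors. Of 16, 11 passed as higher at day 3 and 13 at day 9 against day 0, beside 12.9% and 15.2% of all tested genes. None passed as lower, and the medians were 0.88 and 0.76 on the log2 scale. Syk, the kinase that docks on the gamma chain, had a log2 fold change of 0.35 at day 3 (edgeR adjusted p = 0.291) and 0.81 at day 9 (edgeR adjusted p = 0.0306). The day 9 call of Syk ended for the same 4 left-out libraries as that of B2m (0.07 to 0.117). Lat2, an adaptor that passes on the signal of Syk, was at 5.97, 4.93 and 6.70 CPM in the day 0 libraries, at 22.7, 22.6 and 21.8 CPM in those of day 3, and at 97.4, 46.5 and 58.6 CPM in those of day 9. The days do not overlap, and it was higher at day 9 than at day 3 as well (log2 fold change 1.59, edgeR adjusted p = 0.0107). Fgr, a Src-family kinase gene, rose by 1.70 at day 3 and 0.86 at day 9 on the log2 scale (edgeR adjusted p = 0.000802 and 0.00956). Fgr was lower at day 9 than at day 3 (log2 fold change -0.84, edgeR adjusted p = 0.0224), a call that ended without day 3 replicate 1 or day 9 replicate 1 or 4 (0.0505 to 0.0844). Lcp2, the SLP-76 adaptor, rose by 1.69 and 1.29 on the log2 scale (edgeR adjusted p = 8.41e-05 and 0.000101) and was lower at day 9 than at day 3 (-0.39, edgeR adjusted p = 0.0243). The authors' FDR for Lcp2 at day 9 against day 3 was 0.503, and this call was not followed under the alternatives. Lyn, the Src-family kinase that starts the phosphorylation of these receptors, had log2 fold changes of 0.54 and 0.39 (edgeR adjusted p = 0.0135 and 0.034). Its day 3 call ended without day 0 replicate 1 or 2 (0.0576 to 0.0643), and its day 9 call without any 1 of the 3 day 0 or the 3 day 9 libraries (0.0664 to 0.128). The authors' FDR for Lyn was 0.092 at day 3 and 0.252 at day 9.

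On the inhibitory side, 6 of 10 genes rose at day 3 and 8 at day 9 against day 0, beside 12.9% and 15.2% of all tested genes. None fell, and the medians were 0.73 and 0.84. Inpp5d, the SHIP1 phosphatase that Fcgr2b calls in, had log2 fold changes of 0.42 and 0.52 (edgeR adjusted p = 0.031 and 0.0104). Its day 3 call ended without any 1 of 8 libraries, all but day 3 replicate 1 (0.0517 to 0.117), and its day 9 call without day 0 replicate 2 (0.0528). The authors' FDR for Inpp5d was 0.287 at day 3 and 0.1465 at day 9. Ptpn6, the SHP-1 phosphatase of other inhibitory receptors, rose by 1.03 and 0.84 (edgeR adjusted p = 0.003 and 0.00444). The inhibitory surface receptors moved more. Lilrb4a rose by 3.12 and 3.41 on the log2 scale (edgeR adjusted p = 0.000567 and 0.000239), and Lair1, a collagen receptor, by 2.03 and 2.65 (edgeR adjusted p = 0.00332 and 0.000589). Sirpa, the receptor for the CD47 signal that holds back phagocytosis, rose by 1.43 and 2.42 (edgeR adjusted p = 0.00417 and 0.000291). It was also higher at day 9 than at day 3 (log2 fold change 0.99, edgeR adjusted p = 0.0258), a call that ended without day 0 replicate 2, day 3 replicate 1 or day 9 replicate 4 (0.0537 to 0.0614).

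Receptors other than those for antibody that also signal through the Fcer1g chain were tested for 7 genes, of which 4 rose at each day against day 0 and 3 did not pass. Of all tested genes, 12.9% rose at day 3 and 15.2% at day 9. The median log2 fold change of the 7 was 2.20 at day 3 and 2.73 at day 9. Clec4e, the Mincle receptor of macrophages for mycobacterial lipids and dead cells, rose by 3.68 and 3.52 on the log2 scale (edgeR adjusted p = 0.000103 and 0.000101). Clec4n, encoding Dectin-2, rose by 3.11 at day 3 (edgeR adjusted p = 0.000786), and Clec4d by 3.37 at day 9 (edgeR adjusted p = 0.000101). The genes without a call were Oscar, a collagen receptor of osteoclasts and myeloid cells, the platelet collagen receptor gene Gp6 and the NK receptor gene Ncr1, with log2 fold changes between -1.03 and 0.11.

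**Figure D5:**
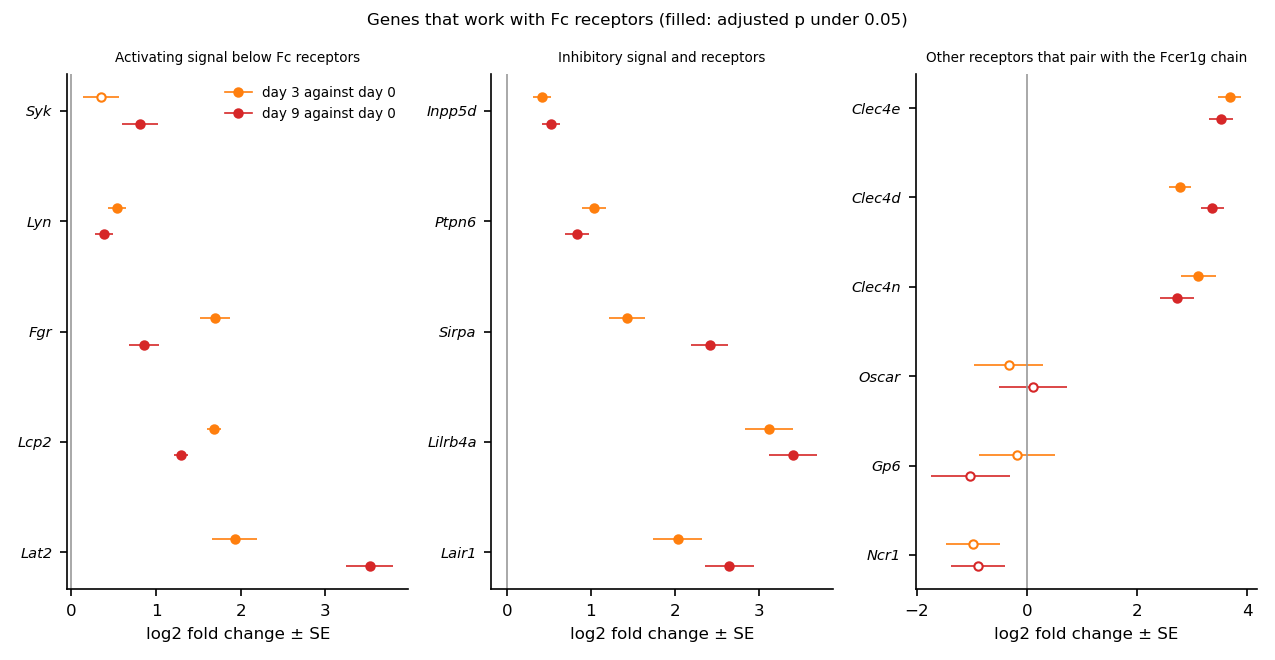
Log2 fold change with its SE (horizontal axes) of genes that signal below activating Fc receptors, of inhibitory genes and of other receptors that use the Fcer1g chain (vertical axes, 1 row for each gene of these lists named in the text), for day 3 and day 9 against day 0, with filled points where the adjusted p was under 0.05. Of the 5 activating signal genes shown, only Lat2 lies above 2, at 3.52 at day 9, and Clec4e lies at 3.68 and 3.52.

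The genes whose levels followed each member most closely over the 9 libraries were ranked by the mean absolute difference between log2 CPM profiles, each centred on its own mean, among 14793 other tested genes. Closest to Fcgr1 were Ms4a6d (0.30), Ccl9 (0.32) and F10 (0.34). Closest to Fcer1g were Clec4a3 (0.09), Ifi30 (0.09) and Metrnl (0.13), and closest to Fcgr3 were Gm21188 (0.11), Cyth4 (0.11) and Metrnl (0.14). Fcgr4 was nearest to Gm21188, Gdf3 and Tmem106a (0.21 to 0.23), and Fcgr2b to S100a4 (0.10), Dok2 (0.17) and Hmox1 (0.21). Fcgrt was nearest to Gas6, Smg8 and Phax (0.07 to 0.08). Fcer2a was nearest to Pax5 (0.24) and Fcmr (0.27), and Fcrla to Frat2 (0.25), Fndc7 (0.28) and Cd79b (0.33). The points share libraries and depth, so these values describe likeness in these 9 libraries.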

How the data were processed

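RNA of 9 mouse tissue samples was sequenced after poly(A) selection with a column kit and a ligation-based library kit, per the labels' protocols. The authors deposited 1 table with the count of reads per gene and library, CPM columns, which are a signal of counts over an effective library size and were checked but not tested, and log2 fold changes with an FDR, a p-value adjusted by the authors. The columns headed RPKM and TPM were not used, because they equal each other and the counts times 1 factor per library, so they carry no gene length. GRCm38 and mm10 are the builds in the submitters' processing notes, while no source used here names the aligner or the counting program. Only 567 of 25597 gene identifiers had the same start in GENCODE M21, so no gene position of the table is printed. Of 25652 genes, 7737 had no read.

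The deposited counts were tested with edgeR 4.0.16 (R 4.3.3), with filterByExpr, TMM factors and the quasi-likelihood F test fitted to the 9 libraries together with a mean for each day and 6 residual degrees of freedom. A gene passed, and is said to have risen or fallen, when its Benjamini-Hochberg adjusted p over 14794 genes was under 0.05, two-sided. "Adjusted p" means this value unless it is said of ratios. Ratios are of counts plus 0.5 within a library, tested with exact permutation over libraries (scipy 1.17.1) and adjusted over 36 tests. Log2 CPM profiles used a prior count of 2. Python 3.11.15 and matplotlib 3.10.9 made the figures. Alternatives were DESeq2 1.42.0, limma-voom (limma 3.58.1), other scaling, other filters (none, or 10 counts), another pseudocount, fits of 2 days alone, a replicate block, a covariate of alveolar type 2 markers, and each library left out. The script was tested on simulated data. Named genes were the 9 members, 20 chosen others and, of each list, the 2 largest changes that passed, with a few more named to complete a small group; some of these are not reported here. The members and gene lists were chosen with earlier results of these data known. Libraries of a day differed by more than counting error (chi-square per degree of freedom of 8.35 to 147), and each was counted separately.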

Additional observations from a re-analysis of the deposited data

How the results depend on the processing

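Of 24 results on single members (8 genes in 3 comparisons), 13 kept their direction and their side of the threshold under all 18 alternatives, 9 changed side under at least 1, and 2 reversed under at least 1. No label says that a replicate number pairs samples of different days, and so few correlations cannot settle it. Same-numbered libraries of days 3 and 9 correlated at 0.47, 0.32 and -0.25 in their deviations from the day means. Day 9 replicates 1 and 3 were closest to the day 3 library of the same number, and replicate 4 was not. Same-numbered libraries of day 0 and later days correlated at -0.15 to -0.03, and none was the closest match. With the replicate number as a block, 3 members in place of 5 were higher at day 3 against day 0. Fcgr4 and Fcgr2b then had edgeR adjusted p = 0.0505 and 0.052. Members lower were 0 at day 3 and 0 at day 9, in place of 2 each. The block also ended day 3 calls of other genes, among them Msr1 (0.0802), Fcrlb (0.056), Fgr (0.054), Lat2 (0.067) and Ptpn6 (0.078). Others were Sirpa (0.06), Lair1 (0.073), Tyrobp (0.065) and Cd247 (0.123), and those of Fcrls, Lyn, Inpp5d, Cd79a, Blk and Gzma. At day 9 against day 0 it ended the calls of Fgr (0.128) and Ptpn6 (0.0736), among others, and for day 9 against day 3 that of Lat2 (0.063). With library totals alone in place of TMM, members lower were 1 at day 3 and 1 at day 9. The day 3 count was also 1 when the libraries of these 2 days alone were fitted and with the alveolar type 2 covariate. With each library left out in turn, members lower were 1 to 2 at day 3 against day 0, 0 to 2 at day 9 against day 0 and 0 to 1 at day 9 against day 3. Members higher than at day 0 were at most 6, the additional gene being Fcgrt. For day 9 against day 3, Fcer2a, at -0.02 with all libraries and far from the threshold, changed sign with DESeq2 size factors (0.009), DESeq2 (0.019), limma-voom (0.524) and the replicate block (0.413), and ranged from -0.540 to 0.656 with 1 library left out. Fcer1g ranged there from -0.078 to 0.227. Among other genes, with 1 library left out, B2m at day 3 ranged from -0.034 to 0.186, Cpa3 from -0.864 to 0.168 at day 3 and from -0.080 to 0.854 at day 9. With the alveolar type 2 covariate, Pecam1 at day 3 was at 0.041 and Sftpc at day 9 at 0.088. The cause of these moves was not tested. Over all genes, 1904 were higher and 486 lower at day 3, against 186 and 28 with the block and 2555 and 2624 without day 3 replicate 3. At day 9, 2246 were higher and 820 lower, against 777 and 123 with the block. Day 9 against day 3 had 768 higher and 542 lower, against 82 and 45 with the block and 2450 and 1648 without day 3 replicate 3. The fit of 2 days alone gave 749 and 175, 3318 and 3014, and 167 and 91, in the same order of comparisons. Of the 36 ratio differences, 5 changed sign under at least 1 of their alternatives, and each of the 5 overlapped between days. With 3 libraries a day, counts under about 10 reads, as for Fcer1a, limit what can be seen.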

Other observations

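The antibody side of these receptors could not be read from the table. The constant-region genes of the immunoglobulin chains, 9 in all and among them Ighm, Ighg1, Ighg2b and Ighg2c, are listed at 0 in every library, so their level is unknown. Jchain, the joining chain of secreted IgM and IgA, was at 8.66, 14.4 and 73.3 CPM at day 0, at 38.2, 4.35 and 1.07 CPM at day 3, and at 146.2, 111.9 and 105.5 CPM at day 9. All day 9 libraries lay above those of day 0, as for 29.3% of tested genes, and above those of day 3, as for 14.4%. No comparison of Jchain passed with edgeR. The authors' deposited table gives it a log2 fold change of 3.06 with an FDR of 0.000732 for day 9 against day 3. None of the 4 tested plasma cell markers passed with edgeR.

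Of the receptors too low to test, Fcrl5, a B cell member of the Fc receptor-like family, had at most 2 reads in a day 0 library, 8 to 16 in the day 3 libraries and 1 to 6 in those of day 9. Fcamr, a receptor for IgA and IgM, had 3 to 9 reads in the day 0 libraries and at most 3 in any later library.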
